A study of Mus musculus with 4 samples.

Results

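SMAD4 peaks were located around 10 genes that set the pace of the cell cycle: the transcription factor gene Myc, the D-type cyclin genes Ccnd1, Ccnd2 and Ccnd3, the kinase gene Cdk6, and the CDK inhibitor genes Cdkn1a, Cdkn1b, Cdkn2a, Cdkn2b and Cdkn2c. A peak was assigned to a gene when its summit, the position with the most stacked fragments, lay in the gene body or within 100 kb of a curated RefSeq transcription start site (TSS) of that gene. The rule used gene names and no measured value, and the 10 genes were part of 26089 curated genes on 20 chromosomes. Counted once each, 40 peaks of replicate 1 and 50 peaks of replicate 2 met this rule. Of these, 33 and 32 belonged to 31 of the 10964 shared regions of the genome, a shared region being the merged interval of peaks of both replicates with at least 1 bp in common.

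Alveolar macrophages (AMs) live in the airspaces of the lung, where they clear surfactant and inhaled particles, and were taken by bronchoalveolar lavage from adult wild-type C57BL/6J mice, with no treatment named, and sorted by flow cytometry. All samples shared this genotype and state, and there was no second condition. Of the 4 samples, 2 were SMAD4 HT-ChIPmentation libraries, in which chromatin bound to a combination of SMAD4 antibodies was tagged by the transposase Tn5 on the beads, and 2 were inputs without antibody that entered only as the control level behind each peak. Whether the replicates came from separate mice or pools is not given in the sources used here, so the differences between them may be technical. Peak lists hold no expression values, so neither the sorted cell type nor the transcription of the 10 genes could be checked.

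SMAD4 is the common partner of the receptor-activated SMAD proteins and accompanies them to DNA when TGFβ or BMP receptors signal. In epithelial cells, TGFβ is known for a growth-arrest programme in which SMAD complexes repress Myc and induce the inhibitor genes Cdkn2b and Cdkn1a. Cyclin D proteins with CDK4 or CDK6 phosphorylate the retinoblastoma protein and so release E2F factors, INK4 inhibitors (Cdkn2a, Cdkn2b and Cdkn2c) bind these kinases, and Cip/Kip inhibitors (Cdkn1a and Cdkn1b) act mainly on CDK2 complexes. AMs can renew by local division in the adult lung and also receive cells from circulating monocytes.

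Across the 10 genes, every gene had at least 1 shared region in its body or within 100 kb of a TSS, compared with 53.8% of all curated genes and 54.9% of protein-coding genes. None of the 10 had a shared region in its promoter, defined as 1 kb before to 100 bp after a TSS, where 2.79% of all genes had one. In 6 genes (Myc, Ccnd1, Ccnd3, Cdk6, Cdkn1b and Cdkn2b) a shared region lay nearer to their TSS than to that of any other gene, compared with 20.9% of all genes. Myc, Cdk6 and Cdkn1a had at least 5 shared regions each, as did 8.23% of all genes. Gene counts of this kind depend on the length of the gene and on the gene density around it, and the 10 genes are too few for these percentages to be read as a property of the group. The shared region closest to a TSS lay a median of 34469 bp away in the 10 genes and 87918 bp away in all genes, and the median number of shared regions was 2 and 1.

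**Figure D1:**
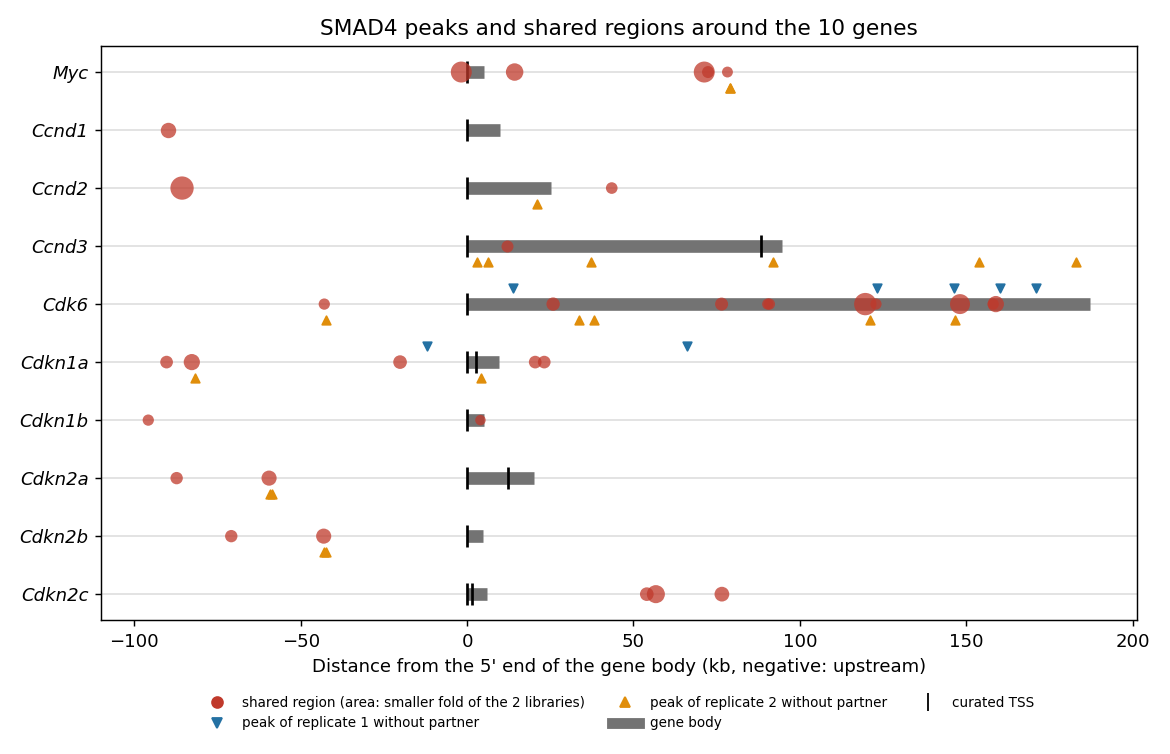
Positions of SMAD4 peak summits around each of the 10 genes, as distance in kb from the 5' end of the gene body in the direction of transcription. Red circles are shared regions with an area proportional to the smaller fold enrichment of the 2 libraries, triangles are peaks of replicate 1 (pointing down) or replicate 2 (pointing up) without a partner, grey bars are gene bodies and black ticks are curated TSSs. No shared region lies on a TSS of its gene, the Myc region 1734 bp upstream is the closest, and Cdk6 has 9 regions within its body.

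**Figure D2:**
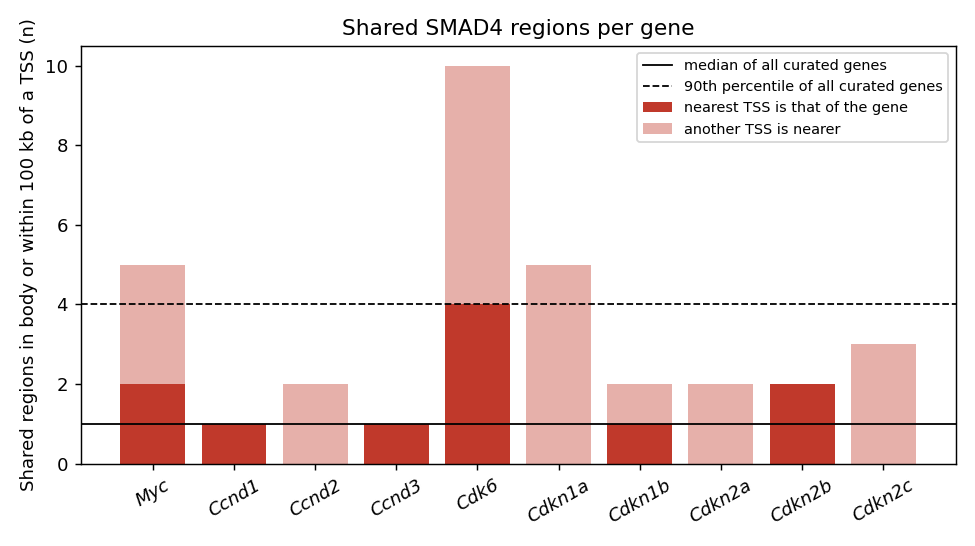
Number of shared regions in the body or within 100 kb of a TSS for each gene, split into regions whose nearest TSS is that of the gene (dark) and regions nearer to another TSS (light). Lines mark the median (1) and the 90th percentile (4) of all curated genes. Cdk6 has 10 regions, Myc and Cdkn1a 5 each, and Ccnd1 and Ccnd3 1 each.

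Each peak of the deposited lists is described by a pair of values: the fold enrichment over the control at the summit, and from it and the p-value the number of fragments stacked there, a whole number that both values fix. Fold equals the fragments plus 1 over the control level plus 1, so the same number of fragments gives a higher fold where the control level is lower. The control level was 2.08 fragments at 79.4% of summits in replicate 1 and 1.22 at 80.9% in replicate 2. As 1 common level across the genome, it does not describe the local input at each of these summits. The weakest summits at that level had 9 and 7 fragments. Replicate 1 had 16369 peaks and replicate 2 had 19015, of which 69.4% and 59.2% were in shared regions. Of the peaks near the 10 genes, 33 of 40 in replicate 1 and 32 of 50 in replicate 2 had a partner (82.5% and 64%, mean 73.2% ± 13.1, SD, n = 2). Both shares rest on the same overlaps in lists of different length, so this SD is no spread between independent measurements.

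Myc, the gene of the growth-promoting transcription factor whose repression is the classical TGFβ response, had 5 shared regions, 2 of them nearest to its own TSS and 3 inside introns of the neighbouring non-coding gene Pvt1. The region at chr15:61983224-61984072, 1734 bp upstream of the Myc TSS and so outside the promoter window, had 51 fragments at its summit in replicate 1 and 71 in replicate 2, with folds of 16.9 and 32.5. A region as close to a TSS as this was found in 5.32% of all genes, and 6.64% of all shared regions were at least as strong by the smaller of the 2 folds. Of the 5 Myc regions, the one at chr15:61999411-62000057, 14.3 kb downstream of the TSS and beyond the gene's end, had 35 fragments in each replicate and folds of 11.7 and 16.2. The region at chr15:62056177-62056944 in a Pvt1 intron, 71.3 kb downstream of the Myc TSS, was as strong as the upstream one in replicate 1, with 51 fragments and a fold of 16.9, and had 63 fragments and a fold of 28.9 in replicate 2. The other two Pvt1 regions, 72.4 kb and 78.2 kb downstream, were weak, with 16 and 14 fragments and with 13 and 18 fragments. Replicate 2 had 2 further peaks in this intron without a partner, the stronger with 14 fragments.

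Summit sequences of 3 Myc regions are shown, as they hold the strongest regions of the gene and the only E2F string near the 10 genes. They were read from the RefSeq release of mm10, 5' to 3' on the plus strand and 100 bp to each side of the summit. For windows and distances of strings, here and below, the summit of a shared region is the mean of the summits of both replicates. Capitals mark matches to the 13 consensus strings listed further on.
Myc 1734 bp upstream (chr15:61983507-61983707): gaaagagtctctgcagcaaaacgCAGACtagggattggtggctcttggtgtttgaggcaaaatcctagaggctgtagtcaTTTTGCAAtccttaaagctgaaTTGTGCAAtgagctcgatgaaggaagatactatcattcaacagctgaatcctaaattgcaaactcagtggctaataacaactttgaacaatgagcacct
Myc 71.3 kb downstream, Pvt1 intron (chr15:62056512-62056712): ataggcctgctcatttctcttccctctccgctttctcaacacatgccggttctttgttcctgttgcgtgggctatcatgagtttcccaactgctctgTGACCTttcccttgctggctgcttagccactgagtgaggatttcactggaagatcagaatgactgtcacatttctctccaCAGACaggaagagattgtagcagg
Myc 78.2 kb downstream, Pvt1 intron (chr15:62063480-62063680): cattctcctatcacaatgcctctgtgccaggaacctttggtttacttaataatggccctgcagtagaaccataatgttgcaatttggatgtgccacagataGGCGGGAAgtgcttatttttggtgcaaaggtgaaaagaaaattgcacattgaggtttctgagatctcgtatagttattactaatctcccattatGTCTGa
The upstream region held a pair of CEBP strings within 16 bp of the summit and a SMAD box 75 bp from it. In the intronic region 71.3 kb downstream, a nuclear receptor string lay at the mean summit and a SMAD box 79 bp away. The summits of the replicates lay 76 bp apart there, so the string was at the summit of neither. The weak region 78.2 kb downstream held the E2F string GGCGGGAA 5 bp from its mean summit, with the summits of the replicates 95 bp apart. This string was present in 20 of the 10964 windows of all shared regions (0.182%). The region was picked for this string, 1 of 13 searched, after the values were seen.

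The D-type cyclin genes had 1 or 2 shared regions each, beside a median of 1 over all genes. Their regions were distal in Ccnd1 and Ccnd2 and intronic in Ccnd3. Ccnd1 had 1 region, chr7:145029482-145030025, 89959 bp upstream of its TSS in intergenic sequence, and Ccnd1 was still the nearest gene. It had 27 fragments in replicate 1 and 47 in replicate 2, with folds of 9.1 and 21.7, and its ratio of fragments between the replicates (1.74) was the highest of the 31 regions. A region as close as this was found in 50.6% of all genes, so that Ccnd1 was near the middle of the genome in this respect. The Ccnd2 region at chr6:127236354-127237103, 85.6 kb upstream of the TSS, was the strongest of all 31 by the smaller fold, with 63 and 66 fragments and folds of 20.8 and 30.2, a strength reached by 3.53% of all shared regions. Its nearest TSS was that of the uncharacterised gene Gm38404. The second Ccnd2 region, chr6:127107468-127107749 in an intron of the p53 target gene Tigar, was weak, with 15 and 17 fragments. A peak of replicate 2 in the 3' UTR of Ccnd2 had 10 fragments and no partner.

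Ccnd3 had most of its peaks in replicate 2 only. The sole shared region, chr17:47516831-47517231 in an intron 12 kb from the TSS, had 16 fragments in replicate 1 and 25 in replicate 2, with folds of 5.52 and 11.7. Replicate 2 had 7 peaks in the Ccnd3 window and replicate 1 had 1, so that 6 peaks were without a partner, 4 of them in Ccnd3 introns. The strongest, chr17:47511159-47511471 and 6206 bp downstream of the TSS, had 21 fragments and a fold of 9.93. In replicate 2, 410 peaks had 21 fragments and 89.8% of these had a partner, and 1.38% of the peaks without a partner were at least as high. From replicate 2 alone Ccnd3 would have had 7 regions instead of 1.

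Sequences of the strongest region of each D-type cyclin gene are given in the same form.
Ccnd1 89959 bp upstream (chr7:145029690-145029890): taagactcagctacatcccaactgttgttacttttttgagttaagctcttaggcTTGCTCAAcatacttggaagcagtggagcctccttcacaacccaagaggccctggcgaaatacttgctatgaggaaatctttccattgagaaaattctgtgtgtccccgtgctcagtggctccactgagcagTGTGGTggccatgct
Ccnd2 85.6 kb upstream (chr6:127236594-127236794): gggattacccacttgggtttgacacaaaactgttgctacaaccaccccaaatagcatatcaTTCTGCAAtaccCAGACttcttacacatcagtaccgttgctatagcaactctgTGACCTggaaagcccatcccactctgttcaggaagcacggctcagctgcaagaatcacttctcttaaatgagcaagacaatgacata
Ccnd3 intron (chr17:47516924-47517124): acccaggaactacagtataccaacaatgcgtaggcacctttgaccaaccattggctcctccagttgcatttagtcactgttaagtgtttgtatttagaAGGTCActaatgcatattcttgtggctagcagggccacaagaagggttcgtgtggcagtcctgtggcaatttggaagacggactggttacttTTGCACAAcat
The Ccnd2 region combined a CEBP string, a SMAD box and a nuclear receptor string, all within 35 bp of the summit. Both the Ccnd1 and the Ccnd3 windows held a CEBP string but no SMAD box. The Ccnd3 window had a nuclear receptor string 1 bp from its mean summit, but the summits of the replicates lay 140 bp apart.

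Cdk6, a kinase partner of the D-type cyclins, had 10 shared regions, a number reached by 0.774% of all genes. Its body and surroundings also formed a wide window of 287 kb, against 200 kb for most of the other genes, and its density of 3.48 regions per 100 kb compared with a median of 0.499 over all genes. Of the 10 regions, 9 lay in Cdk6 introns and 1 in an intron of Gm36470 upstream. The intronic regions split by distance, with 4 nearest to the Cdk6 TSS and 5 nearer to the TSS of the adjacent gene Fam133b while still within Cdk6. The strongest, chr5:3463237-3463823, lay 119659 bp into the gene with 58 fragments in replicate 1 and 53 in replicate 2 and folds of 19.2 and 24.4. The region at chr5:3491350-3492375, 148 kb from the TSS, had 46 and 57 fragments and folds of 15.3 and 26.2. A region at chr5:3502290-3503063, 159 kb from the TSS, had 33 and 30 fragments. The other 7 regions had 11 to 24 fragments in either replicate. The control level was also raised at the region at chr5:3466626-3466994, at 3.92 fragments in replicate 1 and 2.31 in replicate 2, and its 24 and 15 fragments gave folds of only 5.08 and 4.83. The 4 regions nearest to the Cdk6 TSS, from 25.9 kb to 90.8 kb into the gene, had 14 to 20 fragments in replicate 1 and 15 to 21 in replicate 2. Each replicate had 5 peaks in the Cdk6 window without a partner, the strongest by fold being 1 of replicate 2 with 14 fragments and a fold of 6.77. With replicate 1 alone, the count would have been 16, and when only peaks with a fold of at least 5 were used it fell from 10 to 5.

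Cdk6 119659 bp into the gene (chr5:3463452-3463652): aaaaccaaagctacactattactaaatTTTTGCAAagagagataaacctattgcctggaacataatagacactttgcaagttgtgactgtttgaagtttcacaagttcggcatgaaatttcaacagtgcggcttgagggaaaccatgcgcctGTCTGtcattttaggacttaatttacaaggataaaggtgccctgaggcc
Cdk6 148 kb into the gene (chr5:3491909-3492109): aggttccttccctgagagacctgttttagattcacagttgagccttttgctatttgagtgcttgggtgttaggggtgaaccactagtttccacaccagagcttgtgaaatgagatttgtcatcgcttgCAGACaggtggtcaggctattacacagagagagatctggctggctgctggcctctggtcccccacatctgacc
These are the windows of the 2 strongest Cdk6 regions. Each held a SMAD box, 54 bp and 30 bp from the summit, and the former also a CEBP string. Of the 10 Cdk6 windows, 5 held a SMAD box.

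Among the Cip/Kip inhibitor genes, Cdkn1a (p21) had 5 shared regions and Cdkn1b (p27) had 2, and 1 of these 7 was nearest to its own gene. Of the Cdkn1a regions, 2 were near Stk38, a kinase gene, 1 in an intron of the p53-linked non-coding gene Trp53cor1, and 2 near Rab44, a GTPase gene. The strongest, chr17:29008024-29008557 in the Stk38 promoter and 82.7 kb upstream of Cdkn1a, had 30 fragments in replicate 1 and 22 in replicate 2 and folds of 10.1 and 10.4. Closest to Cdkn1a, at 17.7 kb downstream, was the region at chr17:29111365-29111719, with 18 and 19 fragments. A region 20.1 kb upstream, chr17:29070664-29071031 in Trp53cor1, had 21 and 23 fragments. A replicate 2 peak in a Cdkn1a intron, 1482 bp from a TSS, had 11 fragments and no partner in replicate 1, a strength at which 27.3% of replicate 2 peaks had one.

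Cdkn1b had a weak region in its own body, chr6:134924295-134924561 in the 3' UTR and 4017 bp downstream of its TSS, with 12 fragments in each replicate and folds of 4.22 and 5.87. It ranked in the weakest part of the shared regions, as 93.1% were at least as strong. The summit pair lay 68 bp apart, and at a fold of at least 5 Cdkn1b had 0 shared regions. The second region, chr6:134824464-134824762, 95.8 kb upstream and nearest to Crebl2, had 14 fragments in each replicate. Just outside the limit of 100 kb, Cdkn1b had stronger regions, with folds of 21.8 and 31.6 at 118 kb and of 16.9 and 28 at 124 kb upstream, both in 1700055D16Rik. Just outside the Ccnd2 window, a region 103 kb upstream had folds of 6.82 and 6.32. The Cdkn1a window ended before a region 124 kb upstream with folds of 11 and 17.1. A further region, 139 kb upstream, had folds of 15.9 and 20.9, and both were stronger than any region within the window.

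Cdkn1a 20.1 kb upstream, Trp53cor1 intron (chr17:29070744-29070944): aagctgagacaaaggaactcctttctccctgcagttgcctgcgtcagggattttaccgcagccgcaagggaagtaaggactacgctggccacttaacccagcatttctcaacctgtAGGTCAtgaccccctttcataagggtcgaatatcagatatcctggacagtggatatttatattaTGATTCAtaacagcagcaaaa
This window belongs to the closest region upstream of Cdkn1a. It held a nuclear receptor string 19 bp from the summit and an AP-1 string at 83 bp. Repeat sequence made up 45.8% of this window, against a mean of 8.25% over the windows of the 31 regions.

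The INK4 inhibitor genes Cdkn2a (p16 and p19) and Cdkn2b (p15) lie next to each other on chromosome 4 and shared the same 2 regions, both in introns of the non-coding gene Gm12610 and nearest to Cdkn2b. The region at chr4:89353999-89354507 had 26 fragments in replicate 1 and 20 in replicate 2 and folds of 8.77 and 9.48. It lay 43.1 kb upstream of Cdkn2b and 59.5 kb upstream of the nearer of the 2 Cdkn2a TSSs. The one at chr4:89381653-89382074, 70.9 kb upstream of Cdkn2b, had 23 and 12 fragments and folds of 7.8 and 5.87, the lowest ratio of fragments between the replicates (0.522) of the 31 regions. Replicate 2 had 2 more peaks beside the former, with 10 and 9 fragments and no partner. From replicate 2 alone, each gene would have had 5 regions.

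Cdkn2c (p18) had 3 regions, all intergenic and 52.6 to 75.2 kb downstream of its TSS, nearer to the uncharacterised genes 9630013D21Rik and 4930522H14Rik. By the smaller fold, 1 of them was the strongest region of any inhibitor gene. This region, chr4:109609610-109610518, had 41 fragments in replicate 1 and 44 in replicate 2 and folds of 12.5 and 20.3. The others had 27 and 35 fragments, and 21 and 28 fragments. All peaks of the Cdkn2c window had a partner.

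Cdkn2b 43.1 kb upstream (chr4:89354016-89354216): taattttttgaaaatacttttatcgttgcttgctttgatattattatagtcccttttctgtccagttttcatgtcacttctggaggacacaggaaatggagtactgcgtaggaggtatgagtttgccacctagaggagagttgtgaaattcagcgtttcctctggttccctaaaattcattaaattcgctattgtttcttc
Cdkn2c 55.3 kb downstream (chr4:109609932-109610132): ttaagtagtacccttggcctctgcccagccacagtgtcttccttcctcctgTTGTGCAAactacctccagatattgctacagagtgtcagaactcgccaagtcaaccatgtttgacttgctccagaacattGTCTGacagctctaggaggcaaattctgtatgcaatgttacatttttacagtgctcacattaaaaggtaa
The former is shown as 1 of the 4 windows with none of the 13 strings, and the latter as the strongest region of an inhibitor gene, with a CEBP string and a SMAD box.

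**Figure D3:**
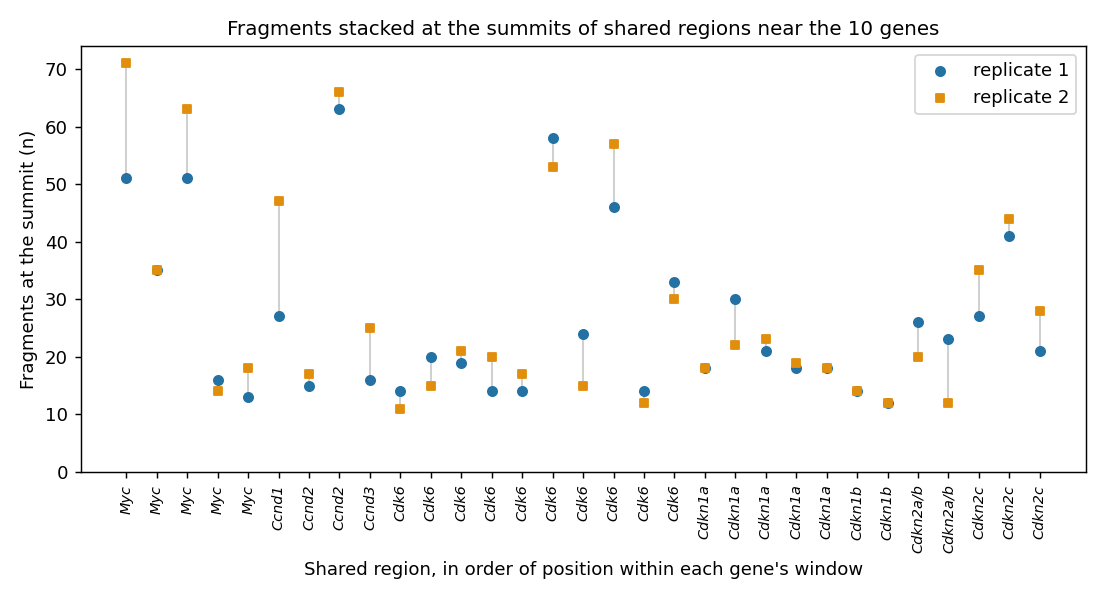
Number of fragments at the summit in replicate 1 (circles) and replicate 2 (squares) for each of the 31 shared regions, grouped by gene. Regions with over 40 fragments in both replicates are in the windows of Myc, Ccnd2, Cdk6 and Cdkn2c, and Ccnd1 and the farther Cdkn2b region show the widest ratios between the replicates.

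In strength, the 31 regions resembled the shared regions of the whole genome. Their median fold was 6.82 in replicate 1 and 9.48 in replicate 2, the same as the medians of all 10964, and their median fragment numbers were 21 and 20 compared with 20 and 21. By the smaller fold, 2, 5 and 7 of the 31 were in the strongest 5%, 10% and 20% of shared regions. Fold ranked similarly in both replicates, with a Spearman correlation across the 31 regions of 0.842 and of 0.782 across all shared regions, where regions share the libraries and are no replicates. Replicate 2 had the higher fold in 29 of the 31 regions (87.2% of all regions) but the larger fragment number in 16 (47.1% of all), and its control level was lower. Introns held 19 of the 31 (61.3%, against 49.3% of all shared regions), intergenic sequence 9 (29%, against 40.5%), promoters 2 (both of other genes) and exons 1. All 10 regions of the Cdk6 window were intronic, 9 of them within Cdk6, so the intron share reflects this long gene in large part.

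**Figure D4:**
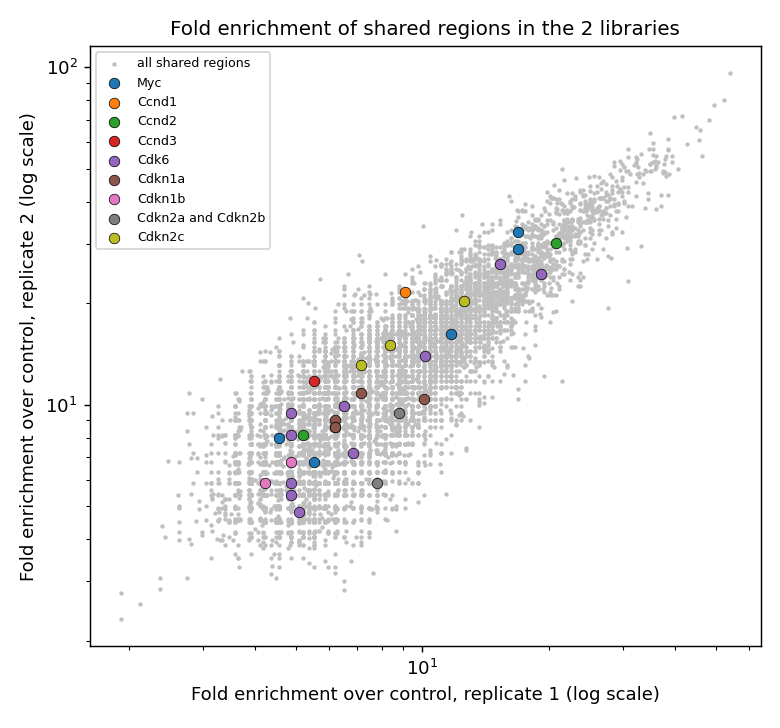
Fold enrichment over the control in replicate 1 (x axis) and replicate 2 (y axis), both on log scales, of all 10964 shared regions (grey) and of the 31 near the 10 genes (coloured by gene). The coloured points run from 4.22 (Cdkn1b) to 20.8 (Ccnd2) in replicate 1 and from 4.83 (Cdk6) to 32.5 (Myc) in replicate 2.

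Windows of 100 bp to each side of the summit were searched on both strands for 13 strings: SMAD box GTCTG, SMAD palindrome GTCTAGAC, GC-type SMAD string GGCGCC, CEBP TTGCNNAA, PU.1 GAGGAAGT, ETS CAGGAAGT, AP-1 TGANTCA, E-box CACGTG, RUNX TGTGGT, RBPJ GTGGGAA, STAT5 TTCNNNGAA, nuclear receptor AGGTCA and E2F GGCGGGAA. The PU.1 and ETS strings differ only in their first letter, and RUNX and RBPJ strings can overlap, as they did once near Cdkn1b. Of the 31 windows, 12 held a SMAD box (38.7%, exact 95% interval 21.9 to 57.8) and 11 a CEBP string (35.5%, 19.2 to 54.6), against 38.8% and 40.8% of all shared regions. None held the SMAD palindrome or the GC-type string, which were in 0.465% and 1.01% of all. Such intervals cover counting error only. The nuclear receptor string was in 6 windows (19.4%, against 15.4%). In all 6 it lay within 50 bp of the mean summit, a position it had in 8.04% of all shared regions. The summits of the replicates lay a median of 56 bp apart in the 31 regions and 49 bp in all. In the Ccnd3 region they lay 140 bp apart, and the string was within 50 bp of neither. This string was singled out after its values were seen. Within the same 50 bp, the SMAD box was in 6 of the 31 windows (21.9% of all shared regions), the CEBP string in 7 (28% of all) and the AP-1 string in 0 (6.71% of all). AP-1 strings were in 4 windows (12.9%, against 12.3%) and RUNX strings in 5 (16.1%, against 26.4%). Mean GC content was 44.1% ± 6.01 (SD, 31 windows) and 43.7% ± 6.49 for all.

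**Figure D5:**
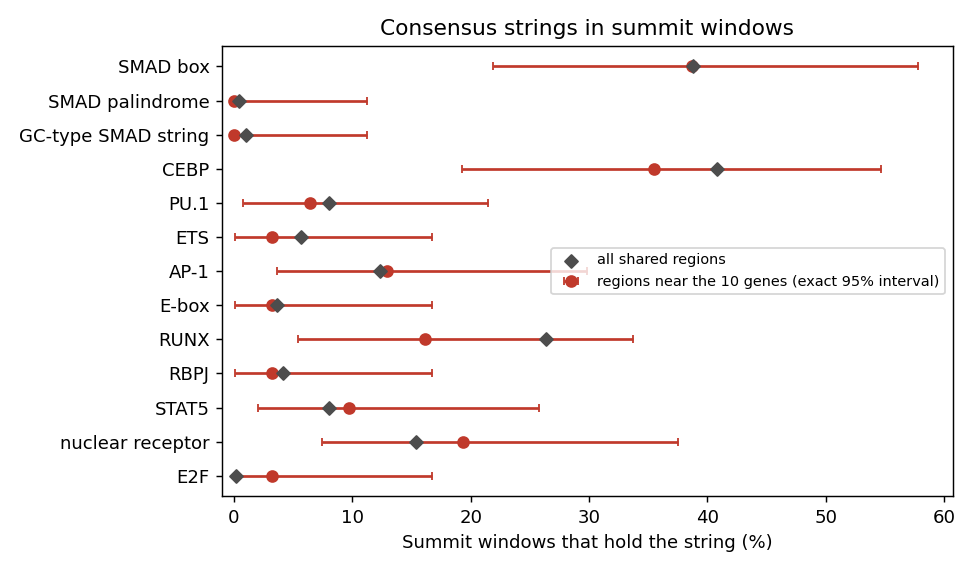
Percentage of summit windows that hold each string in the 31 regions near the 10 genes (circles, with exact 95% intervals) and in all 10964 shared regions (diamonds). All 13 diamonds lie within the interval of the 31 regions, which is wide.

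Other cell cycle genes were described from a list of 40. At least 1 shared region was near 29 of them (72.5%, against 53.8% of all genes). A region nearest to their own TSS was found for 12 of the 40, against 20.9% of all genes. In the promoter, 2 of the 40 had a region, against 2.79% of all genes. By group, 8 of 11 MYC network genes, 6 of 10 other cyclin and kinase genes and 2 of 3 other CDK inhibitor genes had a region nearby. So did 10 of 13 pocket protein and E2F genes and all 3 of a group made up of Trp53, Mdm2 and Bmi1. Cdk4, the other kinase partner of the D-type cyclins, had a region 822 bp upstream of its TSS, chr10:127062406-127063124, with 58 fragments in replicate 1 and 75 in replicate 2 and folds of 19.2 and 34.3, equal to the highest Cdk6 fold in replicate 1 and above it in replicate 2. E2f8, a repressor E2F gene, had a region 839 bp upstream with 22 and 27 fragments. The genes with most regions were Mlx with 7, Mxd1 and E2f6 with 5, and Rb1 with 4, followed by Mxi1, Cdk2, Fbxw7, Tfdp1 and Mdm2 with 3 each. All regions counted for Mlx, Mxd1, E2f6, Rb1 and Cdk2 were nearer to the TSS of another gene.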

How the data were processed

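SMAD4 binding was measured in 2 HT-ChIPmentation libraries with 2 input libraries. Replicate numbers follow the order of the records and pair nothing. According to the methods, Cutadapt trimming, Bowtie2 alignment to mm10, PICARD duplicate marking and samtools filtering by the authors preceded peak calling with MACS3 (q 0.05, input as control). The deposited lists are 1 per SMAD4 library. The deposited columns used were the fold ratio over the control, −log10 p-values and −log10 q-values at the summit and the summit offset, and the deposited score was not used. Fragments at the summit and control level were solved from fold and p under a Poisson model; p was matched within a relative 5.2e-06 and 4.9e-06. Read depth is not given by peak lists; the fragment numbers are the precision behind each value.

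The annotation was RefSeq for the mm10 assembly, limited to its 45657 curated transcripts (26089 genes). Shared regions needed an overlap of 1 bp, and their summit is the mean of both summits. The nearest gene was that of the closest TSS. Text names all 10 genes, each gene's regions nearest to its TSS, its strongest region and strongest peak without a partner, and, of 40 other cell cycle genes, those with most regions or with a promoter region. Other regions in the windows, regions just outside them and remarks on the nuclear receptor and E2F strings were added after their values were seen. Members, lists and strings were chosen with earlier results of these data known. With 1 condition there was no test, only counts beside those of all genes or regions. Alternatives were a q of 0.01, a fold of at least 5, 50% reciprocal overlap, summits within 100 bp, windows of 50 and 200 kb, predicted transcripts, leaving out each replicate, and 50 bp for strings. Python 3.11.15, numpy 2.4.6, pandas 2.3.3, scipy 1.17.1, pysam 0.24.0 and matplotlib 3.10.9 were used.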

Additional observations from a re-analysis of the deposited data

How the results depend on the processing

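The counts depended on the window and the peak limits by construction. Shared regions near the 10 genes numbered 31, 19 within 50 kb and 40 to 50 when a replicate was left out and every peak counted. Peaks of replicate 1 fell from 40 to 26 both at a fold of at least 5 and within 50 kb, and peaks of replicate 2 went from 50 to 33 within 50 kb and 79 within 200 kb. Regions nearest to the TSS of 1 of the 10 genes went from 11 to 7 with predicted transcripts, which add TSSs, and to 13 to 21 without a replicate. All genes with a region nearby (53.8%) were 47.2% at a fold of at least 5, 48.7% with 50% reciprocal overlap, 49.3% with summits within 100 bp, 38% within 50 kb, 70.3% within 200 kb, 50.9% with predicted transcripts and 62.8% to 67.3% without a replicate. Of the 40 other cell cycle genes, 19 had a region within 50 kb. The remaining 43 of 60 recomputed values stayed within 1.5 times the reported count or, for the percentage, within its interval. Of the 10 genes, 7 kept a region within 50 kb, 9 at a fold of at least 5 (all but Cdkn1b) and 9 with summits within 100 bp (all but Ccnd3). For single genes, 23 of 90 recomputed counts moved by more than 1.5 times. Input signal was not analysed on its own, the weakest summits at the usual control level held 9 and 7 fragments, and expression was not measured. No paired analysis was possible because there is 1 condition and no test.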

Other observations

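Farther from Myc, beyond the limit of 100 kb and up to 2 Mb downstream of its TSS, 21 more shared regions were found, a stretch chosen after the values were seen. The strongest, chr15:62349856-62350835 at 365 kb, had 64 fragments in replicate 1 and 66 in replicate 2 and folds of 21.1 and 30.2. Between 397 and 416 kb, 6 regions lay close together, with 15 to 38 fragments in replicate 1 and 8 to 32 in replicate 2. At 1.51 Mb a pair of regions had 36 and 38 fragments and 22 and 24 fragments, and at 1.72 Mb a region had 27 and 23. None of the 21 regions was nearest to the Myc TSS, their nearest genes being Macroh2a3, Gm20740, 4930449C09Rik and Cyrib. The count of 21 was not set beside that of other stretches of this length or of the upstream side. Whether any of the regions contacts Myc was not tested. Beyond the window of Cdkn2b, at 175 and 180 kb upstream, a pair of regions was still nearest to its TSS, with 34 and 30 fragments and 21 and 18 fragments.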
